A study of Homo sapiens with 9 samples.

Results

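Gene expression was compared between NT2 cultures exposed to the organophosphorus compound mipafox and control cultures, over all probes of the array that do not serve as controls. NT2 (NTERA-2 cl. D1) is a human embryonal carcinoma line that takes on neural features in the presence of retinoic acid. The comparison rests on 6 of the 9 arrays of the series, 3 from cultures that received 5 μM mipafox and 3 from control cultures, with RNA taken after 4 days (96 h). All groups were differentiated with 10 μM retinoic acid over the same 4 days. The control cultures received no compound, and mipafox was added in the differentiation medium. The remaining 3 arrays, from cultures with 1 μM paraoxon, entered the statistical fit and are quoted only where a result turns on them. Letters from A to C name the replicates. The methods call them technical replicates and the series' design text calls them biological replicates, so the p-values measure the spread between these arrays, which may be technical. Mipafox A was hybridised on slide 1 with all 3 controls, whereas mipafox B and C were on slide 2 with all 3 paraoxon arrays. Mipafox A is therefore given apart from mipafox B and C for the counts and for many of the named genes, because only mipafox A shared a slide with the controls. Where a gene is given by the value over all 3 mipafox arrays alone, the slides can differ in size or sign.

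Mipafox phosphorylates the active serine of esterases. Its best known target beside acetylcholinesterase is neuropathy target esterase (NTE), the product of PNPLA6, a membrane phospholipase that releases fatty acids from phosphatidylcholine and lysophosphatidylcholine. Compounds that inhibit and age NTE, mipafox among them, cause a delayed degeneration of long axons, and loss of NTE disturbs the turnover of phosphatidylcholine in neural cells. An inhibitor acts on the enzyme, and the arrays measured the transcripts.

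The following stretches come from the array's 60-base probes and show what was read for the transcripts on which the account turns, the esterase itself, the lipid genes that lay lowest beside it, and the gene probe with the smallest p-value. The first 30 bases of each gene probe are shown, 5′ to 3′ in lower case, and none of them is marked, since no motif was searched. Positions are those of the array's annotation on hg19.
PNPLA6, chr19:7625582-7625641: ggcaacgtcattgagaaaatgctcacagac
GDPD1, chr17:57335133-57335192: tataatcgagaacacttaacagtgtggggt
CEPT1, chr1:111726084-111726143: gttgcacacatgacgaaaagtgaaatgcat
LPP, chr3:188597359-188597418: gtgactgatctagttttctcagctgtatgc
Both tested probes of AHR are shown because they gave different values, as described further on.
AHR, chr7:17382763-17382822: ctgttggacgtcagcaagttcacatggagg
AHR, chr7:17384999-17385058: aatggcttcggacaaaatatctctgagttc

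Each value below is a normalised log2 signal, the log2 of a probe's processed fluorescence minus the 75th percentile of its array, so that 0 marks the level below which 75% of the spots of that array lie. All 10 markers of embryonal carcinoma cells, POU5F1 and SOX2 among them, were well above background on all 6 arrays, as were 7 of 8 neural progenitor markers (not SOX1) and 6 of 7 neuronal markers (not STMN2). Of 17 markers of other cell types 9 were also well above background on all 6 arrays, the brightest being COL1A1 with a control mean of 1.70. Only GFAP of astrocytes and KRT5 of basal epithelium were above background on none of the 6 arrays. The share of probes well above background ran from 70.0% to 73.6% on the control arrays and was 66.0% on mipafox A, 71.5% on mipafox B and 67.8% on mipafox C. The 10 spiked-in adenovirus E1A control probes had a median log2 signal before scaling of 9.23 to 9.61 on the control arrays, 7.77 on mipafox A, 7.34 on mipafox B and 7.17 on mipafox C, so that mipafox A lay below each control also within slide 1, and the part of this in the results was not tested.

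No probe met the study's limits for mipafox against control. Of the 42405 probes in the files 29134 were tested with limma, and 0 of them (0% called) passed the limits of 0.05 for the adjusted p and 1 for the size of the log2 fold change. Their smallest adjusted p was 0.156, at a probe without a gene symbol and without a value on mipafox A. The limits with the p left unadjusted were passed by 246 probes (0.844%), 78 of them higher (0.268%) and 168 lower (0.577%) with mipafox. An unadjusted p under 0.05 at any fold was reached by 2027 probes (6.96%), 862 higher (2.96%) and 1165 lower (4%). The fold changes were centred on 0, with a median of 0.00 and 49.8% of probes below 0. The median standard error was 0.20 on the log2 scale, and the 95% interval of 23940 probes (82.2%) lay wholly within 1 of 0, so that for those probes the interval left out a doubling or a halving. When arrays were weighted by their estimated quality, 800 probes were called, and without mipafox A 76 were called. The weights were 0.39, 4.37 and 1.80 for controls A to C and 0.40, 3.05 and 0.28 for mipafox A to C. The count of 800 thus leaned on control B and mipafox B, which were on different slides.

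**Figure D1:**
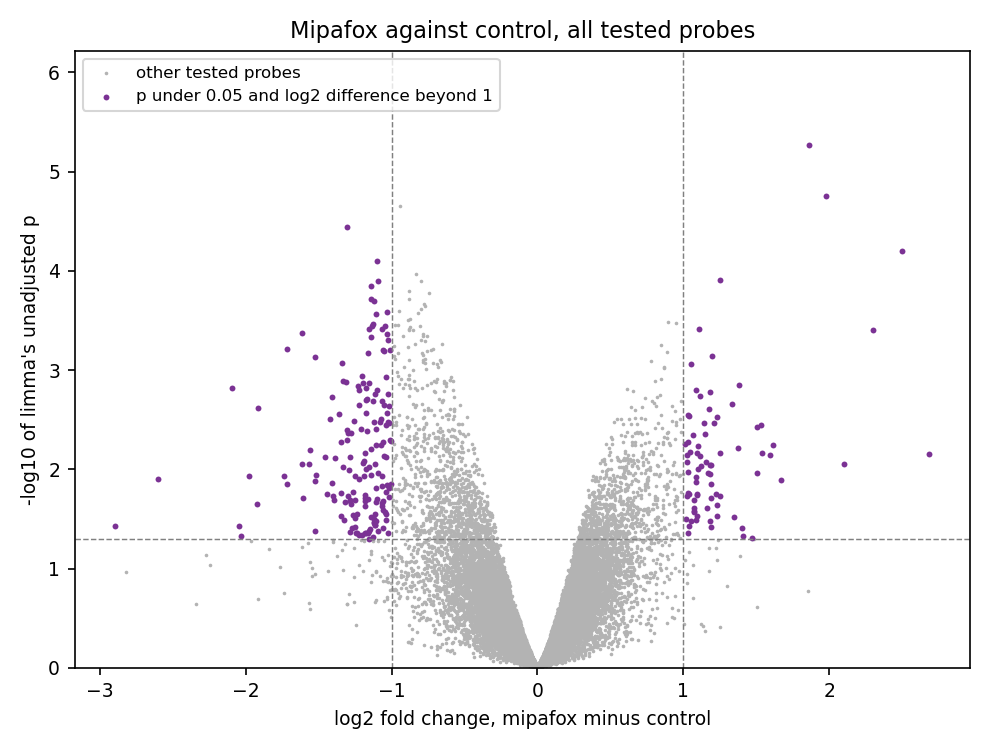
Each point is 1 of the 29134 tested probes, with the log2 fold change of mipafox minus control on the horizontal axis and -log10 of limma's unadjusted p on the vertical axis. Dashed lines mark a log2 difference of 1 in either direction and a p of 0.05, and the 246 probes beyond both are coloured, 168 of them on the lower side.

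The 78 higher and 168 lower probes differed in where mipafox A lay. Among the higher probes the median difference from the control mean was 0.41 on mipafox A, 1.72 on mipafox B and 1.34 on mipafox C. Among the lower probes it was -0.71 on mipafox A, -1.17 on mipafox B and -1.58 on mipafox C. Mipafox A lay beyond all 3 control arrays at 55 of the 77 higher probes with a value on it and at 130 of the 168 lower probes. Since mipafox A was part of the mean by which these probes were chosen, these counts are no separate evidence of a difference within slide 1. Gene symbols were carried by 22 of the higher and 97 of the lower probes, and long intergenic non-coding RNA names by 22 and 51. These were 28.2% and 57.7% with a symbol and 28.2% and 30.4% with a non-coding RNA name, beside 75% and 15.8% of all tested probes. The higher probes were dim, with a median control signal of -5.44 against -2.05 over all tested probes, and the lower probes had a median of -4.35. The share of G and C in the probe sequence had a median of 41.7% in the higher probes and 45.0% in both the lower probes and all tested probes.

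Fitted apart, mipafox A on the slide of the controls and mipafox B and C on the other slide gave different counts. For mipafox A against control 2 probes were called (0.00687%), both higher, and at an unadjusted p 76 higher (0.261%) and 326 lower probes (1.12%) passed. For mipafox B and C against control 76 probes were called (0.261%), 61 higher (0.209%) and 15 lower (0.0515%), and unadjusted 246 higher (0.844%) and 381 lower ones (1.31%) passed. For mipafox B and C against mipafox A, arrays of the same treatment on different slides, 9 probes were called (0.0309%), 7 higher (0.024%) and 2 lower (0.00687%) on slide 2, beside 749 higher (2.57%) and 261 lower ones (0.896%) without adjustment. In the contrast of mipafox B and C with control, treatment and slide cannot be told apart.

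The 61 probes called higher on mipafox B and C lay at a median of 1.66 and 1.35 above the control mean on these arrays, and at 0.12 on mipafox A. The paraoxon arrays, which share slide 2 but received another compound at another dose, lay at 1.63, 1.72 and 1.67. All 3 paraoxon arrays lay above mipafox A at each of the 60 probes with a value there, with a median difference of 1.52. The 15 probes called lower lay at -1.25 and -1.21 on mipafox B and C, at -0.57 on mipafox A and at -0.86, -0.94 and -1.03 on the paraoxon arrays. Mipafox A thus lay near the controls at the higher probes and between the controls and the slide 2 arrays at the lower probes. Of the 61 higher probes 19 carried a gene symbol and 8 a non-coding RNA name, against 11 and 2 of the 15 lower probes. With a symbol these were 31.1% and 73.3%, and with a non-coding RNA name 13.1% and 13.3%, beside the 75% and 15.8% of all tested probes. The count of 76 was not stable, since it was 0 without any 1 of the 3 control arrays or without mipafox B, 1 without mipafox C, 3 without paraoxon A, 6 without paraoxon B and 83 without paraoxon C.

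**Figure D2:**
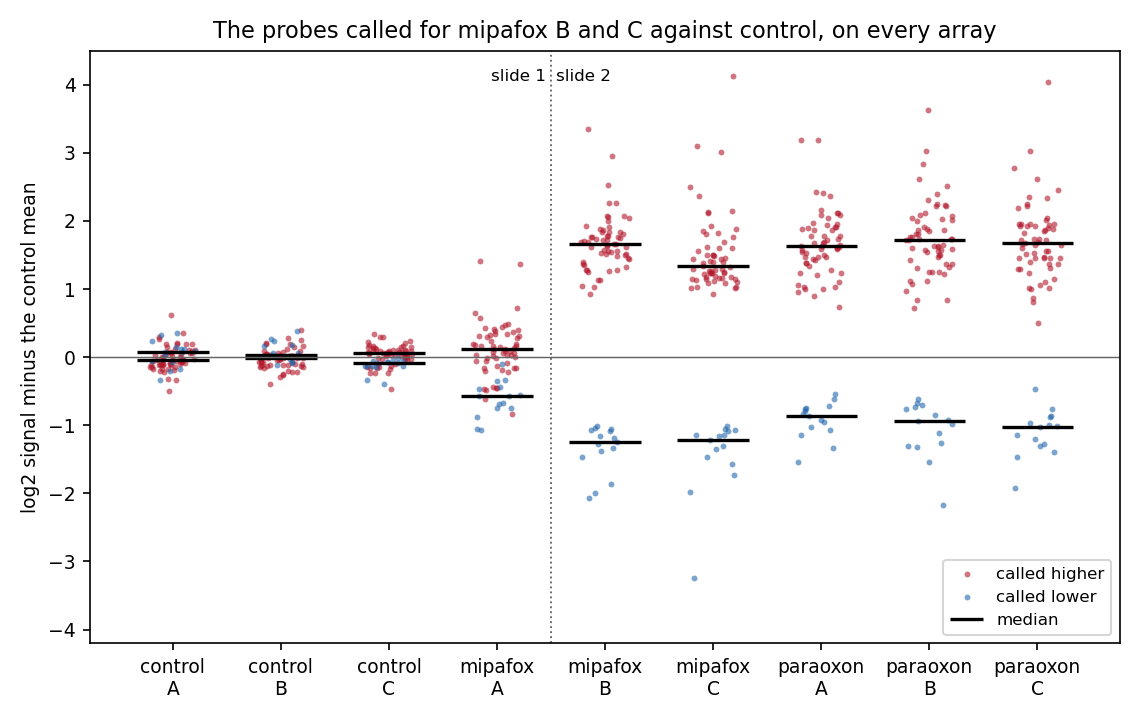
The log2 signal minus the control mean is shown on every array for the 76 probes called for mipafox B and C against control, 61 called higher in red and 15 called lower in blue, with black bars at the medians. The red medians are 0.12 on mipafox A and 1.35 to 1.72 on the 5 arrays of slide 2, while the blue median on mipafox A is -0.57.

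The 2 probes called on mipafox A stood apart on that array alone. CNTN3, which encodes a neural cell adhesion molecule of the contactin family, had log2 signals of -5.80, -5.69 and -5.89 in the controls, -2.85 on mipafox A, and -5.45 and -5.39 on mipafox B and C. The difference of mipafox A from control was 2.94 (SE 0.18, adjusted p = 0.0047), and the 3 paraoxon arrays lay between -5.52 and -5.30. OR52W1, an odorant receptor gene, had -7.13, -6.86 and -6.65 in the controls, -3.53 on mipafox A, and -6.39 and -6.31 on mipafox B and C. Its difference was 3.35 (SE 0.28, adjusted p = 0.036). Both probes were also called for mipafox B and C against mipafox A, in the opposite direction. A lone array was assumed to vary like the others, and when the 4 arrays of slide 1 were fitted alone neither probe was called. Without any 1 of the other arrays the count was 1, except without paraoxon B, where it was 3.

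PNPLA6, the transcript of the esterase that mipafox inhibits, did not differ beyond the spread between arrays. Its 1 tested probe had log2 signals of -0.45, -1.03 and -0.74 in controls A to C and of -0.66, -0.59 and -0.63 in mipafox A to C, the order kept below. The mipafox arrays lay inside the range of the controls. The log2 fold change was 0.11 (SE 0.16, 95% interval -0.25 to 0.47, adjusted p = 0.959), so that the interval held neither a doubling nor a halving of the transcript. Mipafox A differed from the control mean by 0.08 and mipafox B and C by 0.13. Without control B the value was -0.03.

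Of 35 tested genes of NTE and phosphatidylcholine metabolism, each read by its brightest probe, 22 were higher and 13 lower with mipafox, and none was called. The median log2 fold change was 0.09 over these genes and 0.00 over all tested probes. An unadjusted p under 0.05 was reached by 2 genes, both lower, beside 4% of all tested probes that were lower at this limit, and the 95% interval of 32 of the 35 lay within 1 of 0. GDPD1, a glycerophosphodiesterase that acts as a lysophospholipase D, had log2 signals of -3.84, -3.22 and -3.37 in the controls and -4.57, -4.97 and -4.47 with mipafox. All 3 mipafox arrays lay below the controls, and the log2 fold change was -1.19 (SE 0.26, adjusted p = 0.340). Mipafox A, within the slide, differed by -1.10 and mipafox B and C by -1.24. CEPT1, which attaches phosphocholine or phosphoethanolamine to diacylglycerol in the last step of phospholipid synthesis, had -2.18, -2.03 and -2.11 in the controls and -2.58, -2.77 and -2.96 with mipafox. Its log2 fold change was -0.66 (SE 0.16, adjusted p = 0.399), with no overlap between the groups. Mipafox A differed by -0.48, less than the -0.76 of mipafox B and C. The brightest members were LPCAT3, which re-acylates lysophosphatidylcholine, at 0.15 (SE 0.17), and LYPLA2, a thioesterase and lysophospholipase, at 0.23 (SE 0.15). Their intervals lay within 1 of 0, and their adjusted p-values were 0.937 and 0.850. The other 3 probes of LYPLA2, all dimmer, gave 0.03, -0.25 and -0.52. On the paraoxon arrays GDPD1 and CEPT1 differed from the control mean by -1.08 and -0.55, at another dose and on slide 2 alone.

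Among cholinesterases and other serine hydrolases, the enzyme class that organophosphorus compounds phosphorylate, 13 of 35 tested genes were higher and 22 lower, with a median of -0.08. No member was called, and 31 of the 35 intervals lay within 1 of 0. An unadjusted p under 0.05 was reached by 3 of the 35 genes, beside 6.96% of all tested probes. PPME1, the methylesterase of protein phosphatase 2A, had -1.57, -2.01 and -2.09 in the controls and -2.47, -2.77 and -2.91 with mipafox, a log2 fold change of -0.82 (SE 0.19, adjusted p = 0.344). The groups did not overlap, but the second tested probe of PPME1 gave -0.05. AFMID, which hydrolyses formylkynurenine, had a log2 fold change of -0.57 (SE 0.19, adjusted p = 0.556), with -0.26 on mipafox A and -0.72 on mipafox B and C. Its second probe gave -0.63. DAGLA, which makes the endocannabinoid 2-arachidonoylglycerol, was at 0.41 (SE 0.17, adjusted p = 0.696). The brightest members were fatty acid synthase FASN at -0.14 (SE 0.13) and the lysosomal carboxypeptidase CTSA at 0.08 (SE 0.14), whose second probe gave -0.31.

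The list of FGF, Hippo and Wnt signalling held more members at an unadjusted p under 0.05 than the other lists did, 9 of 45 tested genes, 4 higher and 5 lower, beside 6.96% of all tested probes. Its median was -0.02, none was called, and the smallest adjusted p was 0.295. All 3 mipafox arrays lay above the controls for 4 of the 45 genes and below them for 7, beside 5.33% and 6.46% of all tested probes. The 5 lower genes at that limit were LATS1, MOBKL1B, YAP1, ANKRD1 and SP5. LATS1, a kinase that phosphorylates the coactivator YAP, had -5.18, -5.16 and -4.90 in the controls and -5.84, -6.16 and -6.27 with mipafox, a log2 fold change of -1.01 (SE 0.20, adjusted p = 0.295). MOBKL1B, the array's name for a MOB1 gene, had -0.55, -0.56 and -0.76 in the controls and -1.07, -1.68 and -1.76 with mipafox, a log2 fold change of -0.88 (SE 0.19, adjusted p = 0.340). YAP1 was at -0.89 (SE 0.22) and its target ANKRD1 at -0.79 (SE 0.18), with adjusted p-values of 0.419 and 0.344. These 4 genes, singled out by their p, are among the 7 just counted. Within slide 1 mipafox A differed from the control mean by -0.76 for LATS1, -0.44 for MOBKL1B, -0.51 for YAP1 and -0.81 for ANKRD1. SP5, a transcription factor induced by Wnt signals, was at -0.58 (SE 0.17, adjusted p = 0.492). Second probes of LATS1 and MOBKL1B gave -0.24 and -0.30. On the higher side stood the receptor FGFR1 at 0.47 (SE 0.15), the Wnt effector TCF7L2 at 0.63 (SE 0.24), the FGF antagonist SPRY1 at 0.48 (SE 0.21) and the Wnt antagonist NKD1 at 0.37 (SE 0.16). Their adjusted p-values lay between 0.523 and 0.715. Mipafox A differed from the control mean by 0.30, 0.18, 0.19 and 0.25 for these 4 genes in turn. Mipafox B and C differed by 0.56, 0.86, 0.62 and 0.43. The other probe of FGFR1 went the other way, at -0.67 (SE 0.18). Those of TCF7L2 gave 0.18, in the same direction, and -1.16 (SE 0.35), in the other. Both opposite values had a smaller p in limma's test than the values quoted first. The brightest members were the ERK phosphatase DUSP6 at 0.02 (SE 0.13) and AMOTL2 at -0.20 (SE 0.18).

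**Figure D3:**
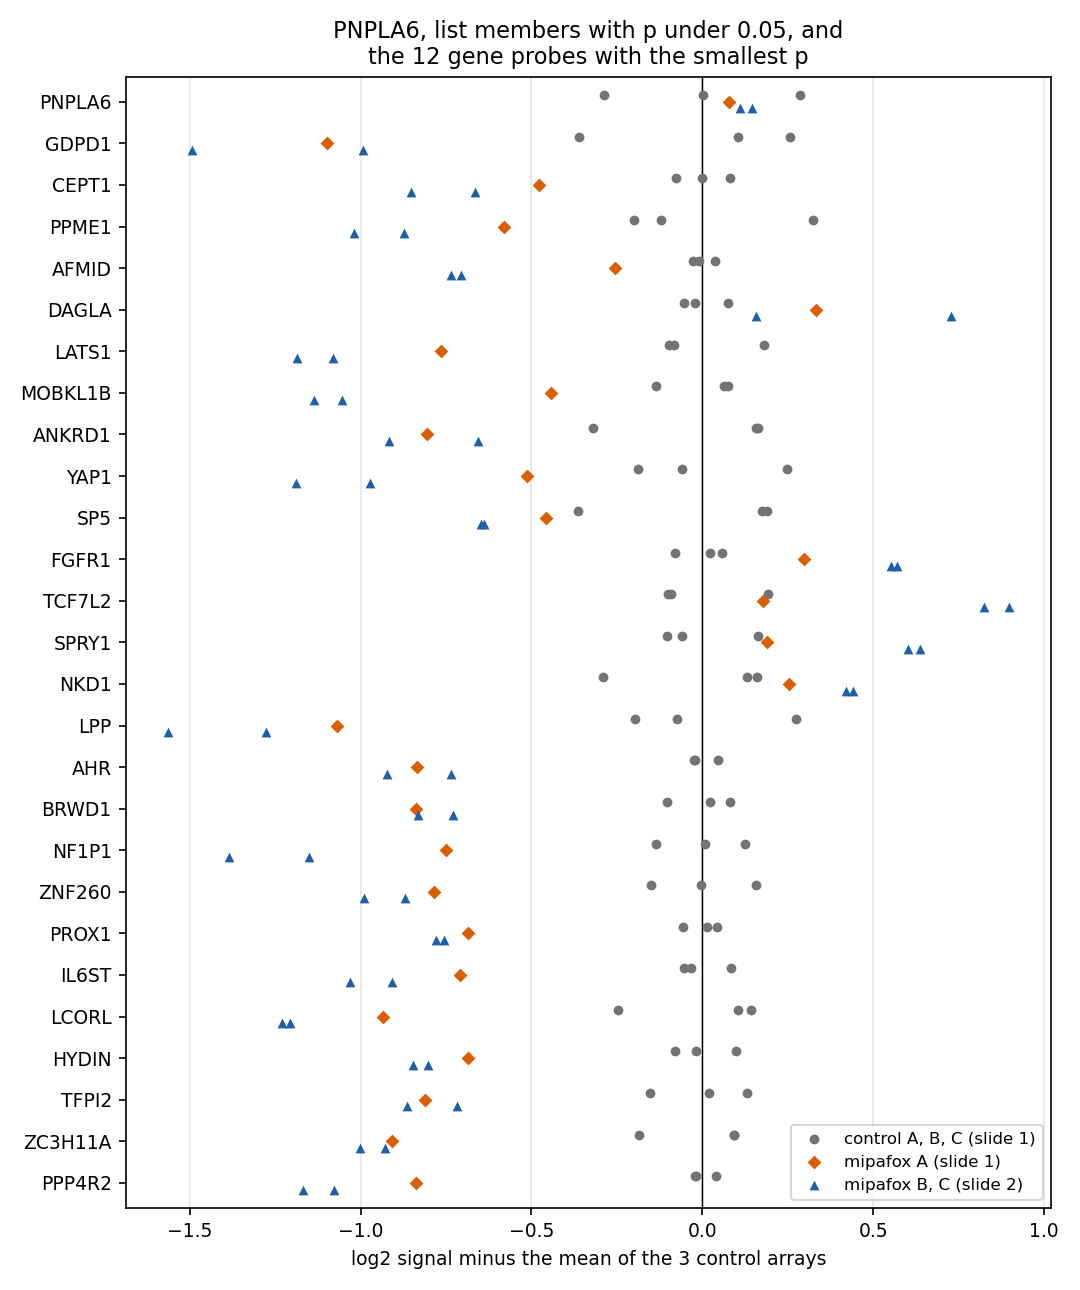
For PNPLA6, the members of 3 gene lists with an unadjusted p under 0.05 and the 12 gene probes with the smallest p, each point is 1 array's log2 signal minus the mean of the 3 controls. Grey circles are controls, the orange diamond is mipafox A on their slide, and blue triangles are mipafox B and C. The diamond lies near the triangles for AHR (-0.83 against -0.83) and TFPI2 (-0.81 against -0.79) and nearer to the controls for TCF7L2 (0.18 against 0.86).

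Genes that mark the state of the cells differed little. Of 25 tested pluripotency genes 16 were higher and 9 lower, with a median of 0.02 and 22 intervals within 1 of 0. POU5F1, the master regulator of pluripotency, had 5.53, 5.51 and 5.43 in the controls and 5.93, 5.25 and 4.86 with mipafox, so that the mipafox arrays lay on both sides of the controls. Its log2 fold change was -0.14 (SE 0.24, adjusted p = 0.968). PODXL, a surface glycoprotein of embryonal carcinoma cells, was at -0.07 (SE 0.14). The members with the smallest p were the transcription factor UTF1 at 0.55 (SE 0.24) and the RNA-binding protein TRIM71 at -0.44 (SE 0.21), with adjusted p-values of 0.713 and 0.753.

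The response to retinoic acid, which both groups received, had a median of 0.04 over 31 tested genes, 17 higher and 14 lower, and none had an unadjusted p under 0.05. CYP26A1, which degrades retinoic acid and is one of its direct targets, had 5.86, 6.09 and 6.00 in the controls and 6.16, 5.99 and 5.81 with mipafox, a log2 fold change of -0.00 (SE 0.15, 95% interval -0.33 to 0.33). The binding protein CRABP2 was at 0.10 (SE 0.19), the retinol transporter STRA6 at 0.33 (SE 0.15, adjusted p = 0.718) and RARRES2 at -0.30 (SE 0.17). The second probe of CRABP2 gave -0.26.

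Neural progenitor genes had a median of 0.02 over 29 tested genes, with 3 of the 29 at an unadjusted p under 0.05, beside 6.96% of all tested probes. VIM, the intermediate filament of progenitors, had 5.36, 5.32 and 5.31 in the controls and 4.97, 4.91 and 5.03 with mipafox. The groups did not overlap, and the log2 fold change was -0.36 (SE 0.14, adjusted p = 0.651), the same on mipafox A as on mipafox B and C. NEUROG1, a proneural transcription factor, was at 0.47 (SE 0.17, adjusted p = 0.618), and SOX3 at 0.20 (SE 0.18). Neuronal genes had a median of 0.03 over 33 tested genes, again with 3 at the limit that 6.96% of all tested probes reached. RBFOX3, whose product is the neuronal antigen NeuN, had -0.39, -0.39 and -0.46 in the controls and 0.03, 0.17 and -0.24 with mipafox, a log2 fold change of 0.40 (SE 0.15, adjusted p = 0.626). GAD1, the enzyme that makes GABA, was at -0.29 (SE 0.12), UCHL1 at 0.03 (SE 0.15) and DPYSL5 at 0.02 (SE 0.17). The second probe of GAD1 gave 0.11, and those of DPYSL5 gave 0.10 and -0.25. Markers of other cell types had a median of 0.08 over 26 tested genes. Of these MYOD1, a muscle regulator, was at 0.81 (SE 0.23, adjusted p = 0.462), FOXA2 of endoderm at 0.42 (SE 0.20), EPCAM at 0.02 (SE 0.17) and KRT7 at 0.29 (SE 0.31).

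Stress responses were as near to 0. The p53 response had a median of 0.01 over 30 tested genes, the NRF2 antioxidant response -0.02 over 29, the stress of the endoplasmic reticulum and of amino acid supply -0.05 over 34, the heat shock response 0.02 over 24, and cholesterol synthesis -0.06 over 30. None of their members was called, and at most 2 genes of each list had an unadjusted p under 0.05. PMAIP1, a pro-apoptotic p53 target, had -0.25, -0.17 and -0.03 in the controls and -0.42, -0.85 and -0.84 with mipafox, a log2 fold change of -0.55 (SE 0.17, adjusted p = 0.525). CCNG1 was at -0.14 (SE 0.32), while its second probe gave -0.78 (SE 0.26, adjusted p = 0.556), and TNFRSF10B was at 0.08 (SE 0.13). The first CCNG1 probe differed from the control mean by -0.79 on mipafox A and by 0.19 on mipafox B and C. In the NRF2 list TXNRD1 was at -0.51 (SE 0.26), NQO1 at -0.21 (SE 0.12), GSTP1 at -0.12 (SE 0.26) and TKT at 0.05 (SE 0.15). GSTP1 differed from the control mean by 0.39 on mipafox A and by -0.38 on mipafox B and C. DNAJC3, a co-chaperone of the unfolded protein response, was at -0.63 (SE 0.21, adjusted p = 0.553), with -0.17 on mipafox A and -0.86 on mipafox B and C. DDIT3 was at -0.37 (SE 0.22), CBS at 0.16 (SE 0.17) and CALR at 0.17 (SE 0.16).

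The small heat shock protein HSPB1 had 5.38, 4.98 and 4.90 in the controls and 5.68, 5.96 and 5.42 with mipafox. The groups did not overlap, and its log2 fold change was 0.60 (SE 0.23, adjusted p = 0.648), with 0.59 on mipafox A and 0.60 on mipafox B and C. Its second probe gave -0.05. DNAJB1 was at 0.36 (SE 0.19), and the mitochondrial chaperonins HSPD1 and HSPE1 at -0.13 (SE 0.18) and -0.15 (SE 0.21). In cholesterol synthesis STARD4 was at -0.39 (SE 0.16), INSIG1 at -0.40 (SE 0.18) and FDPS at 0.08 (SE 0.12). INSIG1 differed from the control mean by -0.08 on mipafox A and by -0.56 on mipafox B and C.

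Genes of DNA replication and mitosis had a median of 0.00 over 44 tested genes, 43 of them with an interval within 1 of 0. MKI67, the proliferation antigen, had 0.06, -0.18 and -0.35 in the controls and -0.62, -0.58 and -0.72 with mipafox, a log2 fold change of -0.49 (SE 0.15, adjusted p = 0.523). Its other probes gave -0.67 and 0.16. MCM2 was at 0.32 (SE 0.15), MCM7 at 0.01 (SE 0.21) and CCNB2 at 0.00 (SE 0.15). On mipafox A MCM7 differed from the control mean by 0.36 and CCNB2 by 0.28, against -0.16 and -0.14 on mipafox B and C. The second probe of MCM7 gave -0.59 (SE 0.26, adjusted p = 0.705).

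The replication-dependent histone genes were the exception among the lists in their spread. Of 63 tested genes 53 were lower and 10 higher, with a median log2 fold change of -0.46, and none was called (smallest adjusted p = 0.473). The 3 control arrays lay at a median of 0.64, -0.02 and -0.61 around their own mean, a range wider than that difference, and the mipafox arrays A to C lay at 0.42, -0.09 and -1.71. Mipafox A was thus among the controls, mipafox B was near control B, and mipafox C alone lay below all of them. Only 1 of the 63 genes had all 3 mipafox arrays below the controls and 1 had all 3 above, beside 6.46% and 5.33% of all tested probes, and 9 intervals lay within 1 of 0. An unadjusted p under 0.05 was reached by 7 of the 63, 6 lower and 1 higher, beside 4% and 2.96% of all tested probes. HIST1H2AB was the gene with all arrays lower, with 0.57, 0.43 and -0.06 in the controls and -0.24, -0.58 and -1.57 with mipafox, a log2 fold change of -1.11 (SE 0.34, adjusted p = 0.507). HIST1H4G was the gene with all arrays higher, at 1.54 (SE 0.44). The brightest members were HIST1H4C at -0.13 (SE 0.30) and HIST3H3 at -0.08 (SE 0.19). Histone genes share much sequence, so that a probe can read more than 1 of them.

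**Figure D4:**
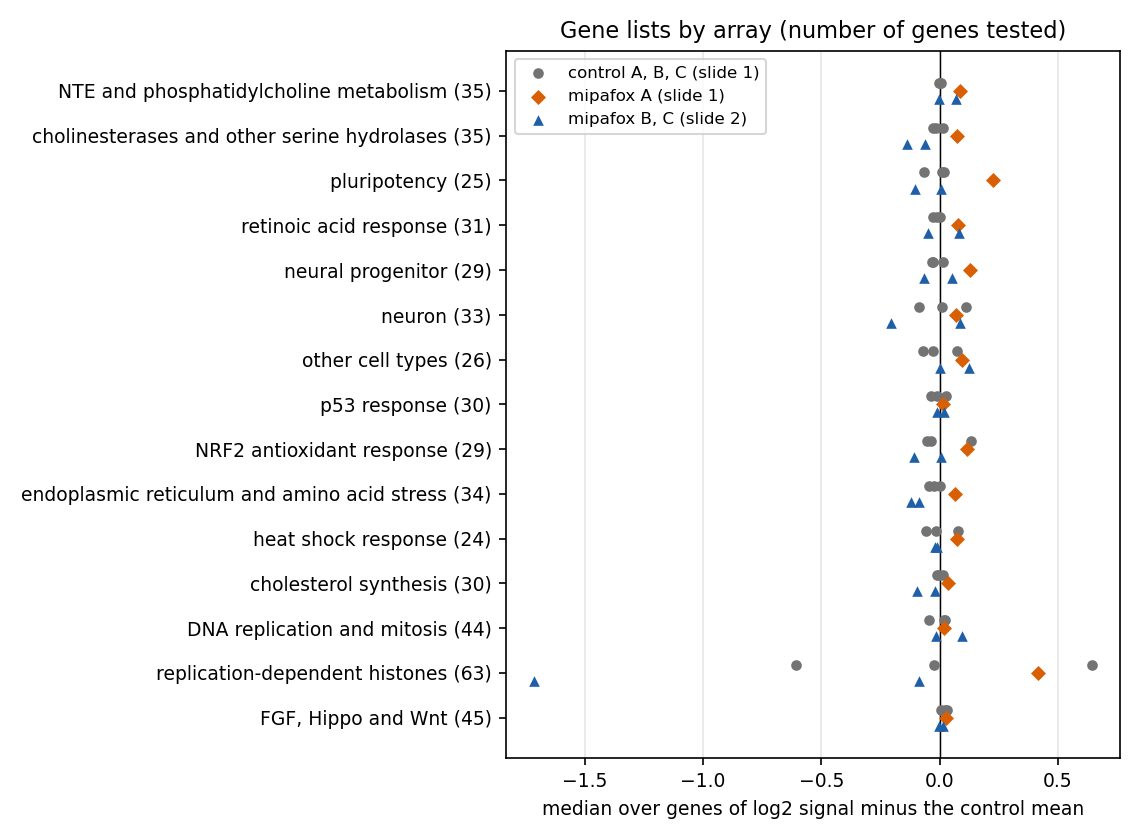
For each of 15 gene lists the points give the median over its tested genes of the log2 signal minus the control mean, by array, with the number of genes in parentheses. The lists lie near 0 on every array except the replication-dependent histones, where the controls run from -0.61 to 0.64 and mipafox C lies at -1.71.

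The largest differences by size were described for probes with a gene symbol that were well above background on all 6 arrays, passed the unadjusted limit and had the same sign on mipafox A as on mipafox B and C. There were 12 such genes on the higher side and 51 on the lower side, and the 10 largest of each are plotted. On the higher side these were HIST1H4G, LOC100130825, ACBD5, ANXA2, NR4A1, LOC442459, ZNF680, TBC1D3B, OR52A1 and CYTB, with log2 fold changes from 1.03 to 1.54. In all of these but HIST1H4G mipafox A lay within 1 of the control mean, 0.09 to 0.85 above it. ACBD5, a peroxisomal acyl-CoA binding protein, had -5.76, -5.38 and -5.13 in the controls, -5.34 on mipafox A, and -3.64 and -3.62 on mipafox B and C. ANXA2, a calcium-dependent membrane-binding protein, had -1.46, -1.36 and -1.33 in the controls, -0.94 on mipafox A, and 0.39 and -0.09 on mipafox B and C. NR4A1, an orphan nuclear receptor of the immediate early response, lay 0.30 above the control mean on mipafox A and 1.53 above it on mipafox B and C. HIST1H4G was dim, with -5.89, -6.76 and -6.81 in the controls. It lay at 1.53 on mipafox A and at 1.55 on mipafox B and C. CYTB, the mitochondrial cytochrome b gene, lay at 0.59 and 1.25. Without mipafox B, 8 of the 10 came within 1 of 0, the lowest being CYTB at 0.69, and without mipafox C 4 did, with LOC100130825 at 0.74.

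On the lower side the 10 were SSTR3, C14orf162, C1orf140, ZNF217, LUZP6, MAGEA6, ZNF618, FSCN2, AXIN2 and LPP, with log2 fold changes from -2.03 to -1.30. SSTR3, a somatostatin receptor, had the largest difference but a wide spread, with 0.19, -0.40 and -1.18 in the controls and -0.95, -1.93 and -4.61 with mipafox (SE 0.88, adjusted p = 0.706). Mipafox A lay inside the range of its controls. AXIN2, a feedback inhibitor and target of Wnt signalling, had -2.19, -2.50 and -2.85 in the controls and -2.97, -3.99 and -4.50 with mipafox, a log2 fold change of -1.31 (SE 0.34, adjusted p = 0.444). LPP, a protein of focal adhesions, had -1.81, -1.34 and -1.68 in the controls and -2.68, -2.89 and -3.17 with mipafox. Its log2 fold change was -1.30 (SE 0.18, adjusted p = 0.263), and mipafox A alone differed by -1.07 (adjusted p = 0.438 for that array). C14orf162 and ZNF618 also lay beyond 1 on mipafox A, at -1.30 and -1.12. Without mipafox C, 5 of the 10 came within 1 of 0, SSTR3 at -0.98, ZNF217 at -0.71, MAGEA6 at -0.86, FSCN2 at -0.86 and AXIN2 at -0.97, and C1orf140 moved to -1.04.

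**Figure D5:**
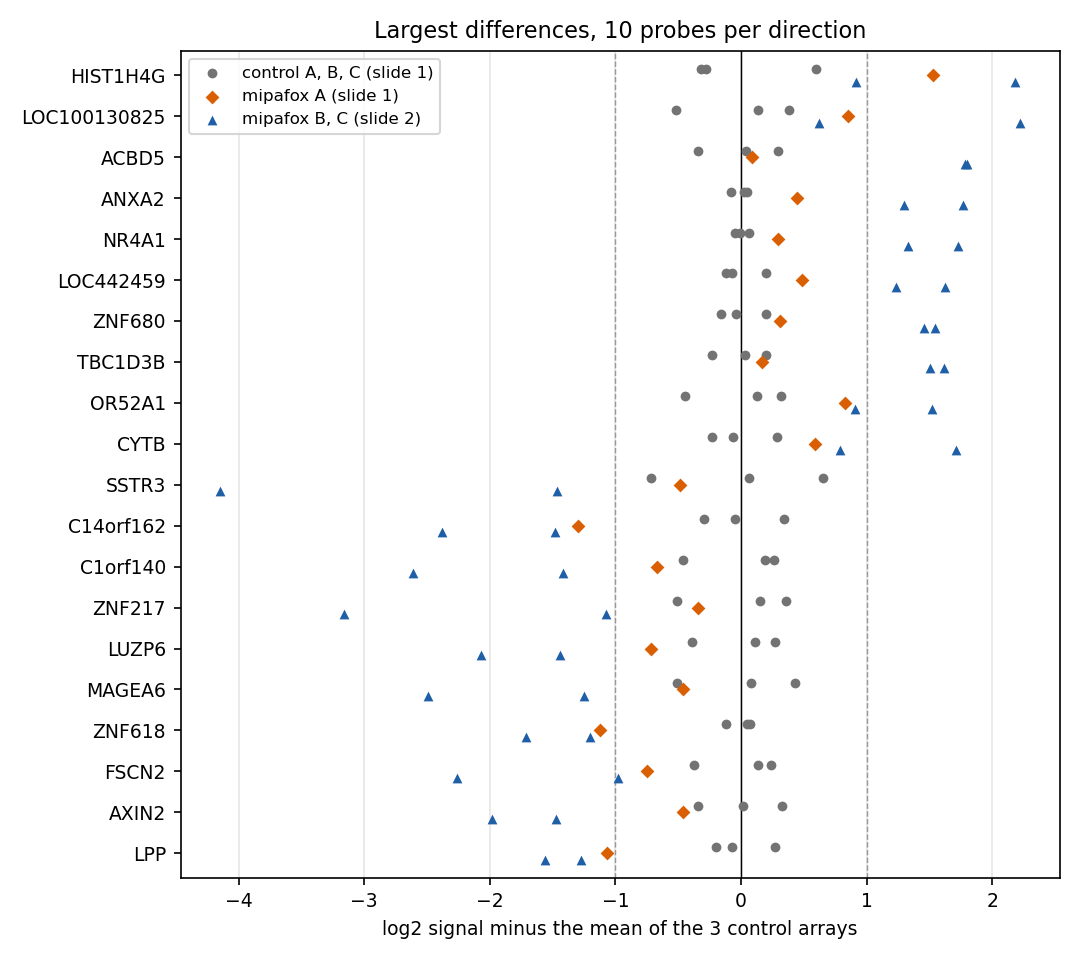
Log2 signal minus the control mean on each array for the 20 gene probes with the largest differences, 10 higher above and 10 lower below; dashed lines mark 1 in either direction. Mipafox A (orange diamonds) lies within 1 of the control mean for all but HIST1H4G, C14orf162, ZNF618 and LPP.

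Other probes of the same genes seldom repeated these values. Of the 20 genes 8 had another tested probe, and for none of the 8 did another probe reach an unadjusted p under 0.05 in the same direction. For ACBD5 the other, brighter probe gave -0.57 where the first gave 1.23. The second probe of ANXA2 gave -0.03, that of AXIN2 -0.20, that of ZNF217 -0.26 and that of ZNF618 0.07. Over all genes past the unadjusted limit, 10 of the 22 higher ones had another tested probe, and none of these 10 had one at p under 0.05 in the same direction. Of the 94 lower genes 51 had another probe, and 10 had one that was lower at that limit.

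The gene probes with the smallest p were picked once their values were known, so that a gap between the groups followed largely from the choice. The 12 that were well above background on all 6 arrays were all lower with mipafox. In all of them the 3 mipafox arrays lay below the 3 controls, beside 6.46% of all tested probes. Brighter probes gave -0.01 for ZNF260, -0.04 for LCORL and 0.15, -0.04 and -0.01 for ZC3H11A. For BRWD1 brighter probes gave -0.11 and -0.85, and for PPP4R2 a dimmer one gave -0.02. All 12 were lower than control on the paraoxon arrays too, at log2 differences from -1.04 to -0.58, at another dose and on slide 2 alone. AHR, the aryl hydrocarbon receptor, had -3.43, -3.36 and -3.43 in the controls and -4.24, -4.33 and -4.14 with mipafox, a log2 fold change of -0.83 (SE 0.13, adjusted p = 0.279). Its second probe, which is brighter, gave -0.12 (SE 0.21), with overlapping groups. PROX1, a homeodomain transcription factor of neural progenitors, had -3.70, -3.67 and -3.77 in the controls and -4.40, -4.47 and -4.49 with mipafox, a log2 fold change of -0.74 (SE 0.12, adjusted p = 0.279). TFPI2, an inhibitor of serine proteases, was at -0.80 (SE 0.14, adjusted p = 0.279). For these 3 genes mipafox A within the slide of the controls differed by -0.83, -0.69 and -0.81.

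IL6ST, which encodes gp130, the shared signal transducer of the interleukin 6 and LIF receptors, was read by 7 tested probes between the first and last base of chr5:55230909-55265550, and all 7 values were below 0. They ran from -1.12 to -0.09, and 4 had an unadjusted p under 0.05 with all mipafox arrays below the controls. Of all tested probes 4% were lower at this p, and 6.46% had all mipafox arrays below the controls. IL6ST was itself picked as 1 of the genes with the smallest p. The brightest of the 7 had -0.15, 0.08 and -0.18 in the controls and -0.91, -1.07 and -1.40 with mipafox, a log2 fold change of -1.04 (SE 0.19, adjusted p = 0.279). The next brightest, at the end of the window with the lowest coordinates, gave -0.09 (SE 0.13). A dimmer probe near it, at chr5:55231134-55231193, gave -0.28 (SE 0.19), with overlapping groups. Probes of 1 gene share its transcript and are no replicates of the treatment.

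Of 4601 tested probes for long intergenic non-coding RNAs none was called, and 22 higher (0.478%) and 51 lower ones (1.11%) passed the unadjusted limit, beside 0.268% and 0.577% of all tested probes. The probe with the smallest p in each direction among those well above background on all 6 arrays is shown whole, because the account of this class rests on such probes and they carry no gene name.
Higher, chr1:173990377-173990436: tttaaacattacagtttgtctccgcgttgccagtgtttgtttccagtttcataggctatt
Lower, chr5:60768740-60768799: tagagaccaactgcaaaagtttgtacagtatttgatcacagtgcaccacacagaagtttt
The first lies in an annotated non-coding locus at chr1:173968527-173991054 and had -5.38, -5.63 and -5.38 in the controls and -4.39, -3.84 and -4.41 with mipafox. Its log2 fold change was 1.25 (SE 0.20, adjusted p = 0.279), and mipafox A lay 1.07 above the control mean. The other lies in a locus at chr5:60768604-60790218 and had -2.73, -2.56 and -2.90 in the controls and -3.61, -3.96 and -3.94 with mipafox. Its log2 fold change was -1.11 (SE 0.20, adjusted p = 0.279), with -0.88 on mipafox A. In both, the 3 mipafox arrays did not overlap with the 3 controls, all of which were on slide 1.

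Detection differed more often in 1 direction. Only 1 probe was well above background on all 3 mipafox arrays and on no control array, whereas 130 were so on all 3 control arrays and on no mipafox array. The share of probes above background was also lower on mipafox A and C than on each control array. Probes detected in 1 of the 2 groups only could enter the test through that group, so the direction of their difference was fixed by the choice. Folds for such probes are bounds, computed from the mean of the bright group against the lowest signal measured above background on each array of the other group, or the probe's own signal where that was higher. GPHA2, a glycoprotein hormone subunit, was at least 1.92-fold higher with mipafox (adjusted p = 0.449). On the other side KRT79 was at least 4.21-fold lower, ZNF765 at least 3.05-fold lower and HYDIN at least 2.23-fold lower with mipafox, with adjusted p-values of 0.545, 0.279 and 0.507. This was the dimmest tested probe of HYDIN, and its brighter probes gave log2 fold changes of -0.78, -0.28 and -0.03. The bound of KRT79 rests mostly on control B, at -3.27 beside -6.31 and -6.03 on control A and C.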

How the data were processed

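RNA of NT2 cultures was hybridised to 9 Agilent arrays of 1 colour, 3 per treatment. The scanner intensities were deposited as Agilent Feature Extraction 10.5.1.1 wrote them, and per the file headers the processed intensity had its background subtracted and was detrended. The authors made a table of log2 values of the same arrays with the R package Agi4x44PreProcess, and it served as an alternative only. From the intensities, the log2 of the processed signal minus each array's 75th percentile was computed, and repeated spots of a probe were averaged after outlier spots had been dropped. A probe was tested if 1 or more treatments had it well above background on all 3 arrays and each treatment gave 2 or more values. Limma 3.58.1 in R 4.3.3 fitted all 9 arrays with 1 mean per treatment, and with mipafox A apart from mipafox B and C in a fit of 4 means. All p-values are limma's moderated test, adjusted by Benjamini-Hochberg over all tested probes. Files were read with version 1.17.8 of the R package data.table, and plots were drawn with matplotlib 3.10.9. The script was tested on simulated data.

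Named genes were the tested probe of PNPLA6, called probes, the 10 largest differences per direction under the stated limits, the 2 members with the smallest p and the 2 brightest of each of 15 gene lists, and up to 3 probes per direction detected in 1 group only. Genes of the FGF, Hippo and Wnt list, the serine hydrolases and the probes with the smallest p were named beyond this rule after their values were seen, and 2 genes that the rule names are not reported here. The groups and gene lists were chosen with earlier results of these data known. Alternatives covered background correction, normalisation, filters, the variance model, array weights, outlier spots, slide and replicate blocks, thresholds, probes per gene and leaving out each array. The number of arrays limits the precision, and 0 columns of other series were met.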

Additional observations from a re-analysis of the deposited data

Results flagged for a closer look

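Mipafox A on slide 1 differed from mipafox B and C on slide 2, 2 sets of arrays of 1 treatment, at 9 probes by limma's test of the difference itself. As log2 differences of mipafox B and C minus mipafox A, CNTN3 had -2.57 and OR52W1 -2.83, the probes A_24_P307384, A_33_P3279181 and A_24_P307306 without a gene symbol had 2.80, 2.19 and 1.86, RECQL had 2.78 and COL11A1 2.09. A_19_P00331683 and A_19_P00800474, probes of long intergenic non-coding RNAs on chromosome 7, had 2.07 and 2.29. The RECQL probe was well above background on 0 control and 2 mipafox arrays, so it was tested only through the paraoxon arrays of slide 2. The brighter probe of RECQL differed from the control mean by -0.44 on mipafox A and by -0.27 on mipafox B and C. COL11A1 was dim too, well above background on 2 control and 2 mipafox arrays. At A_19_P00331683 the controls had -2.97, -3.21 and -3.08, mipafox A -2.96, mipafox B and C -0.82 and -0.97, and the paraoxon arrays -0.93, -0.87 and -0.75. At CNTN3 and OR52W1, as given above, mipafox A stood apart also from the controls on its own slide. At A_33_P3279181 the controls had -5.94, -5.89 and -6.05, mipafox A -8.03, and mipafox B and C -5.97 and -5.71. The parts of slide and array in these differences were not tested.

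In 5 gene lists the median on mipafox A and those on mipafox B and C had opposite signs, and these differences were not tested. Over all tested probes the medians also had opposite signs, 0.061 on mipafox A and -0.023 on mipafox B and C, and in 4 of the 5 lists, all but the histones, the median on mipafox A was between 0.038 and 0.075. The mean of mipafox B and C minus mipafox A was -0.17 for cholinesterases and other serine hydrolases, -0.17 for the stress of the endoplasmic reticulum and amino acid supply, -0.086 for the heat shock response, -0.095 for cholesterol synthesis and -1.32 for the replication-dependent histones.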

How the results depend on the processing

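The count of 0 for mipafox against control became 800 with array weights (577 higher, 223 lower), 6 with the slide as a block in all 9 arrays and 246 without adjustment of p, and stayed at 0 under the other alternatives with all arrays of both groups. Leaving out 1 array at a time gave 0 to 76, and 76 only without mipafox A. With the letters as a replicate block it was 0 and PNPLA6 stayed at 0.11. Arrays were not paired by letter in the main fit. Deviations of control and mipafox arrays of the same letter correlated at 0.26, -0.07 and 0.57. Mipafox A and C correlated best with the control of their own letter, and mipafox B did not. The values were 0.17, 0.12 and -0.45 for control and paraoxon, and 0.24, -0.60 and -0.43 for mipafox and paraoxon.

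For mipafox A the count of 2 became 7 with quantile normalisation, 0 with normexp, 20 with the authors' values, 29 with all probes, 1 with probes above background on all 9 arrays, 16 with array weights, 22 with outlier spots kept, 0 with the 4 arrays of slide 1 alone and 402 unadjusted, and 1 to 3 without 1 array. For mipafox B and C against control 76 became 118 with quantile normalisation, 35 with normexp, 2 with all probes, 0 with the brightest probe of each gene and 627 unadjusted, and 0 to 83 without 1 array. For mipafox B and C against mipafox A 9 became 19 with quantile normalisation, 0 with normexp, 30 with the authors' values, 5 with probes above background on all 9 arrays, 19 with array weights, 43 with outlier spots kept, 1 with the brightest probe of each gene and 1010 unadjusted, and 0 to 14 without 1 array. The cause was not tested for any of these.

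PNPLA6 ran from -0.032 (without control B) to 0.25 without 1 array, and was 0.31 with array weights. Of the log2 fold changes of named genes under the other alternatives, 45 changed sign. With array weights CCNB2 was -0.046, DUSP6 -0.057 and EPCAM -0.12. With normexp MCM7 was -0.052, CCNB2 -0.018, NQO1 0.057, UCHL1 -0.090, DPYSL5 -0.020, EPCAM -0.066 and CYP26A1 0.020. With quantile normalisation CCNB2 was -0.011, DUSP6 -0.012, EPCAM -0.027 and CYP26A1 0.012. With the slide as a block, in 9 or 6 arrays, AMOTL2 was 0.14, GSTP1 0.39, DDIT3 0.016, HSPD1 0.24, HSPE1 0.21, PODXL 0.11, POU5F1 0.44, HIST1H4C 0.18, HIST3H3 0.15, RARRES2 0.044 and CYP26A1 0.18, which are the values of mipafox A. With the authors' values CCNB2 was -0.0032, GSTP1 0.10, HSPD1 0.16, HSPE1 0.044, UCHL1 -0.050, EPCAM -0.021, PODXL 0.14, HIST1H4C 0.022 and CYP26A1 0.19. Without 1 array MCM7 ran from -0.16 to 0.24, CCNB2 from -0.14 to 0.11, DUSP6 from -0.054 to 0.058, GSTP1 from -0.38 to 0.11, TKT from -0.061 to 0.16, HSPE1 from -0.33 to 0.043, UCHL1 from -0.074 to 0.15, DPYSL5 from -0.15 to 0.15, EPCAM from -0.11 to 0.11, CCNG1 from -0.52 to 0.19, PODXL from -0.17 to 0.00040, POU5F1 from -0.43 to 0.10, HIST1H4C from -0.33 to 0.054, HIST3H3 from -0.20 to 0.042 and CYP26A1 from -0.092 to 0.087.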
